A study of Mus musculus with 8 samples.

Results

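Lyz1, Itln1, Ang4, Mptx2, Mmp7 and Habp2 are secreted products of Paneth cells that are not defensins. They were selected by gene name, and each name matched 1 row of the deposited table, giving 6 of its 55114 genes. All 6 were among the 16109 genes that passed the filter on low counts. RNA was sequenced from intestinal crypts of 4 Mex3a-/- mice (KO) and 4 littermate controls (Ctrl), all 8 weeks old and labelled C57BL/6. The crypts were released with EDTA and held every cell type of the crypt. Mex3a, which encodes an RNA-binding protein of intestinal stem cells, had been deleted in the germline and hence in all cells, and no drug or other treatment was given. In such bulk RNA, fewer Paneth cells and less of a transcript per Paneth cell cannot be told apart.

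Paneth cells sit at the base of small intestinal crypts, between the stem cells, and release granules that carry antimicrobial proteins into the lumen. Besides alpha-defensins, the granules hold lysozyme, encoded by Lyz1, which cuts the peptidoglycan wall of bacteria, and Ang4, a ribonuclease of the angiogenin family with microbicidal activity. Itln1 is a lectin that binds sugars on microbial surfaces, and Mptx2 is a mucosal pentraxin, a family of proteins that recognise microbial and damaged-cell surfaces. Mmp7, or matrilysin, is the protease that processes mouse alpha-defensin precursors, and Habp2 is a secreted serine protease that binds hyaluronan. WNT signals and the transcription factors Sox9, Atoh1 and Gfi1 act in the specification of Paneth cells.

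The 6 genes lie on 5 chromosomes of GRCm38, with the coordinates of the table identical to those of GENCODE M21. Lyz1 (ENSMUSG00000069515, chr10:117287797-117292868, minus strand) has 4 exons and Ang4 (ENSMUSG00000060615, chr14:51763878-51773590, minus strand) has 2. Itln1 (ENSMUSG00000038209, chr1:171518122-171535294, minus strand) has 8 exons and Mptx2 (ENSMUSG00000079180, chr1:173274382-173277777, minus strand) has 2. Mmp7 (ENSMUSG00000018623, chr9:7692090-7699585, plus strand) has 6 exons, and the longest transcript of Habp2 (ENSMUSG00000025075, chr19:56287137-56320822, plus strand) has 12.

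The DNA before the transcription start sites is shown because most of the members varied together between mice, as described below. For each member, the 100 bases upstream of the RefSeq start site (GRCm38.p6) are printed 5′ to 3′ on the strand of the gene, with the letters TATAA, the core of a TATA box, in capitals. The positions are chr10:117292869-117292968 for Lyz1, chr1:171535295-171535394 for Itln1, chr14:51773591-51773690 for Ang4, chr1:173277757-173277856 for Mptx2, chr9:7691990-7692089 for Mmp7 and chr19:56287812-56287911 for Habp2.
Lyz1: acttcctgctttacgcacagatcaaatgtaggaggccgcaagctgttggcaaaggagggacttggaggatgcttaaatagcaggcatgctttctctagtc
Itln1: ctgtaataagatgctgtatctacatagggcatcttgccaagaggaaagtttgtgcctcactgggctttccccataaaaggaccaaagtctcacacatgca
Ang4: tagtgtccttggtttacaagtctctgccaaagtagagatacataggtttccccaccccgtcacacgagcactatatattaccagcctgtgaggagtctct
Mptx2: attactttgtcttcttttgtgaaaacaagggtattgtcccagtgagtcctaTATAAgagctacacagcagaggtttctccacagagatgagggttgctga
Mmp7: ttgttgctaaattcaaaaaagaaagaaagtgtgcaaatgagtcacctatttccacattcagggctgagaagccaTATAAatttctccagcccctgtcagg
Habp2: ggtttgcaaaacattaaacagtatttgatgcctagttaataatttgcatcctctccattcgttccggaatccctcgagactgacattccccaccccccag

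TATAA on the strand of the gene was present in these 100 bases in 2 of the 6 members, Mptx2 and Mmp7, and in 7.48% of all 32851 RefSeq promoters. The motif began 26 bases before the start site of Mmp7 and 49 bases before that of Mptx2. GENCODE places the start of Mptx2 21 bases further upstream and that of Habp2 775 bases further upstream, so the Habp2 stretch lies in an intron by GENCODE. Neither CAGCTG, an E-box, nor CTTTGAT, the core bound by TCF factors of the WNT pathway, was found on either strand in the 250 bases upstream of any member, against 4271 and 1053 of the 32851 promoters. These are matches of letters and say nothing about binding.

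Lyz1 has a neighbour, Lyz2, the lysozyme of macrophages, and its stretch before the RefSeq start is shown because it is nearly the same while the levels of the genes are far apart. In the 60 bases from 100 to 41 before the Lyz2 start (chr10:117282313-117282372, minus strand), capitals mark the bases that differ from Lyz1 at the same distance.
Lyz2: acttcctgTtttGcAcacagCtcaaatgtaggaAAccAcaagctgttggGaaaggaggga
GENCODE places the Lyz2 start 49 bases further upstream, so 9 of the 60 bases lie in an exon by GENCODE. Over 100 bases compared without gaps the promoters differed at 8 positions, all of them in the stretch shown, and the whole entries, aligned with gaps, were identical at 83.6% of 298 bases. Yet Lyz2 was at 4.11 to 6.98 CPM (counts per 1000000 reads, scaled with TMM factors) in the 8 mice, whereas Lyz1 was at 3449 to 17673. Mptx1, the paralog of Mptx2, was at 2.48 to 14.9 CPM, and its promoter entry was identical to that of Mptx2 at 88.8% of 278 bases aligned with gaps. Without gaps that pair differed at 69 of 100 positions.

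Reads of such paralogs can be hard to assign. Of all 50-base windows in the annotated transcript, 16.1% were shared with Lyz2 for Lyz1 and 18.0% with Mptx1 for Mptx2, but over 100-base windows the shares were 2.06% and 3.31%. Ang4 shared 4.70% of its 50-base windows with Ang2 and Ang5 and 0.0% of its 100-base windows. Mmp7 and Habp2 overlap genes on the other strand, AV064505 (0 to 8 counts per mouse) and Nrap (110 to 173 counts), and the strand setting of the counting is not given in the sources used here. Counted on either strand, Habp2 shared 6.48% of its 50-base and 4.76% of its 100-base windows with Nrap, and Mmp7 7.36% and 2.58% with AV064505. Itln1 shared 0.972% of its 50-base windows with Gm9765.

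The libraries held 20324184 to 24726221 counted reads in Ctrl and 23489180 to 30654105 in KO. Mex3a had 269, 236, 327 and 328 counts in Ctrl replicates 1 to 4 and 20, 28, 6 and 8 in KO replicates 1 to 4, so the labels held in all 8 mice (log2 fold change -4.43, standard error 0.43, adjusted p = 0.0310, edgeR's quasi-likelihood test). It was the only gene of those tested with an adjusted p under 0.05, but its adjusted p was above 0.05 in 6 of the 8 fits that left out 1 mouse (Ctrl replicates 1, 3 and 4 and KO replicates 1, 3 and 4), at 0.0748 to 0.214, and was 0.126 when same-numbered mice were paired in a block. Replicates 1 and 2 of both genotypes carried Y-linked transcripts and replicates 3 and 4 Xist. Ctrl replicate 1 stood apart from the other controls in Paneth transcripts, and the comparisons below are therefore also given without it where its absence moves them. Since it was chosen by these same values, leaving it out raises by construction the fold change of any transcript highest in it.

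Lyz1 and Itln1 were the most abundant of the 6 transcripts by share of counted reads, and Habp2 was the least. Together the 6 genes took 3.06%, 1.09%, 1.04% and 1.49% of all counted reads in Ctrl replicates 1 to 4 and 0.851%, 0.587%, 1.07% and 1.53% in KO replicates 1 to 4. The share in Ctrl replicate 1 was above that of every other mouse, and the other 3 controls lay within the range of the KO mice.

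On the length-corrected FPKM scale, the order was Lyz1 (6077 ± 3468, SD over 8 mice), Itln1 (3073 ± 1583), Ang4 (1785 ± 1243), Mptx2 (808 ± 819), Mmp7 (254 ± 110) and Habp2 (17.1 ± 8.45). The mean of Mptx2 was raised by Ctrl replicate 1, at 2804 FPKM against 363 to 821 in the other mice. Each gene was above the next in the order in 8 of 8 mice, and hence also without Ctrl replicate 1, although the spreads over mice of all neighbours except Mmp7 and Habp2 overlapped. The mean log2 ratio between neighbours was smallest for Itln1 over Ang4 (0.93 ± 0.37, SD over 8 mice) and Lyz1 over Itln1 (0.98 ± 0.25). The ratio of Ang4 to Mptx2 varied most, from 1.004 to 5.53, and that of Mmp7 to Habp2 least, from 13.5 to 18.2.

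Lyz1 and Ang4, which act on bacteria directly, were lower on average in KO but overlapped widely. Lyz1 was at 17673, 6861, 5255 and 8520 CPM in Ctrl replicates 1 to 4 and at 4811, 3449, 5903 and 9381 CPM in KO replicates 1 to 4. Ctrl replicate 1 had the highest level and KO replicate 2 the lowest, and KO replicate 4 was above 3 of the 4 controls. The means were 9578 ± 5559 and 5886 ± 2537 CPM (SD, n = 4 per genotype), and KO over Ctrl was -0.70 on the log2 scale (standard error 0.41, 95% interval -1.62 to 0.21). The difference did not pass edgeR's test (p = 0.118, and 0.671 after adjustment over all genes tested), and an exact two-sided permutation test over the 70 assignments of the mice gave p = 0.257. Leaving out Ctrl replicate 1 gave -0.23 (standard error 0.32), and leaving out KO replicate 4, the KO mouse with the most Lyz1, gave -1.02 (unadjusted p = 0.0348, adjusted p = 0.788, edgeR).

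Ang4 was the member that differed most between mice. It was at 3229, 724, 1190 and 1505 CPM in Ctrl replicates 1 to 4 and at 620, 284, 1430 and 1221 CPM in KO replicates 1 to 4, an 11.4-fold range. Ctrl replicate 1 was again the highest mouse and KO replicate 2 the lowest, while KO replicates 3 and 4 lay among the controls. The means were 1662 ± 1093 and 889 ± 530 CPM (SD, n = 4 each), and KO over Ctrl was -0.90 on the log2 scale (standard error 0.55, 95% interval -2.14 to 0.33; unadjusted p = 0.133, adjusted p = 0.687, edgeR). The exact permutation p was 0.229, and the fold change without Ctrl replicate 1 was -0.36 log2 units (standard error 0.50).

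Of the proteins that bind microbial surfaces, the lectin Itln1 was the more abundant and the pentraxin Mptx2 had the most negative fold change of the 6 members. Itln1 was at 7337, 2417, 2984 and 4484 CPM in Ctrl replicates 1 to 4 and at 2316, 1346, 3218 and 4147 CPM in KO replicates 1 to 4. The highest mouse was Ctrl replicate 1 and the lowest KO replicate 2, and 2 of the 4 KO mice were inside the control range. The means were 4306 ± 2201 and 2757 ± 1202 CPM (SD, n = 4 each). KO over Ctrl was -0.64 on the log2 scale (standard error 0.40, 95% interval -1.55 to 0.27; unadjusted p = 0.145, adjusted p = 0.702, edgeR), and -0.26 (standard error 0.36) without Ctrl replicate 1. The exact permutation p was 0.257.

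Mptx2 was at 2259, 369, 653 and 416 CPM in Ctrl replicates 1 to 4 and at 451, 317, 289 and 420 CPM in KO replicates 1 to 4. Ctrl replicate 1 was 4.71 times the mean of the other controls, whereas the 4 KO mice lay within a narrow range that held Ctrl replicates 2 and 4. The means were 924 ± 899 and 369 ± 78.3 CPM (SD, n = 4 each), and KO over Ctrl was -1.32 on the log2 scale (standard error 0.54, 95% interval -2.53 to -0.11). The p from edgeR was 0.0354 before and 0.565 after adjustment, and the exact permutation p was 0.171. With Ctrl replicate 1 left out, the control mean was 479 ± 152 CPM (SD, n = 3) and KO over Ctrl was -0.38 (standard error 0.23; unadjusted p = 0.136, adjusted p = 0.784, edgeR). The p before adjustment was also above 0.05 in edgeR without KO replicate 2 (0.0763; 0.688 after adjustment), KO replicate 3 (0.0786; 0.9604) or KO replicate 4 (0.0546; 0.788), with log2 fold changes of -1.25, -1.22 and -1.39.

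The proteases Mmp7 and Habp2 had the log2 fold changes closest to 0 among the members. Mmp7 was at 508, 171, 225 and 342 CPM in Ctrl replicates 1 to 4 and at 160, 170, 275 and 333 CPM in KO replicates 1 to 4. Apart from Ctrl replicate 1, both genotypes covered nearly the same range. The means were 311 ± 149 and 234 ± 83.6 CPM (SD, n = 4 each), and KO over Ctrl was -0.41 on the log2 scale (standard error 0.35, 95% interval -1.20 to 0.38; unadjusted p = 0.272, adjusted p = 0.793, edgeR). The value without Ctrl replicate 1 was -0.07 (standard error 0.31), and the exact permutation p with all mice was 0.429.

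Habp2 was at 107, 36.3, 39.2 and 75.7 CPM in Ctrl replicates 1 to 4 and at 32.2, 28.0, 50.02 and 70.2 CPM in KO replicates 1 to 4. In both genotypes replicate 4 was well above replicate 2, and the KO mice lay on both sides of Ctrl replicates 2 and 3. The means were 64.7 ± 33.7 and 45.1 ± 19.3 CPM (SD, n = 4 each), and KO over Ctrl was -0.52 on the log2 scale (standard error 0.39, 95% interval -1.40 to 0.37; unadjusted p = 0.218, adjusted p = 0.763, edgeR). The exact permutation p was 0.343, and the value without Ctrl replicate 1 was -0.16 (standard error 0.36).

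**Figure D1:**
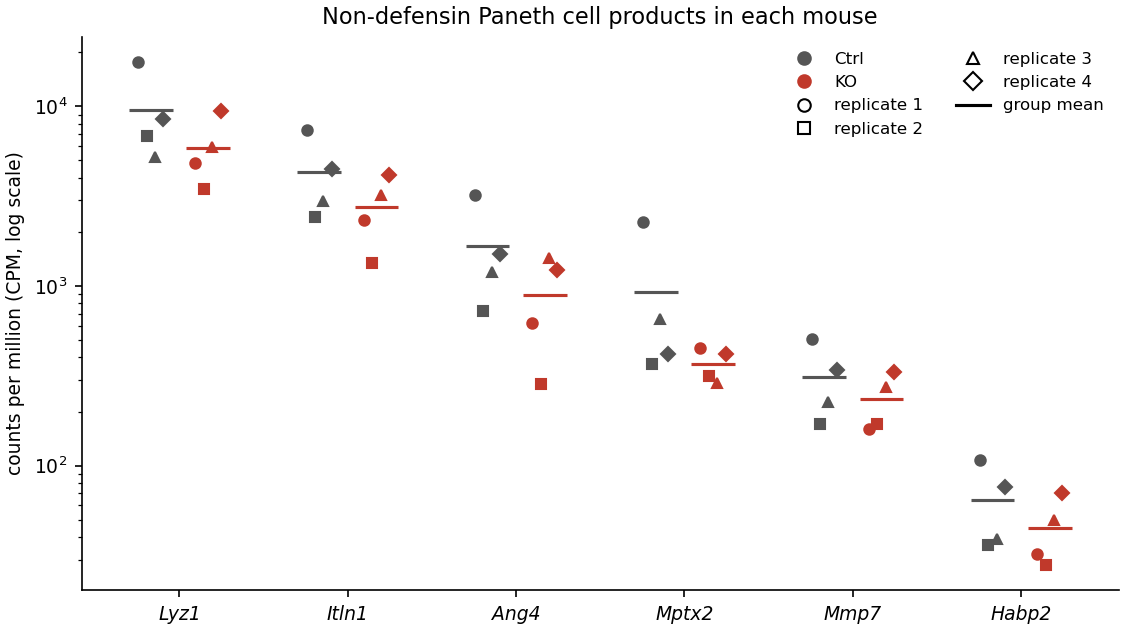
Level of each of the 6 genes in each mouse, in CPM on a log axis, with Ctrl in grey and KO in red, a symbol for each replicate number and a line at the group mean (n = 4). Ctrl replicate 1 (grey circle) is the highest mouse for all 6 genes, and the groups overlap for each gene.

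Read together, 0 of the 6 members passed an adjusted p of 0.05, against 0.00621% of all genes tested (Mex3a). At an unadjusted p under 0.05, 1 of 6 members was called, Mptx2, against 8.38% of all genes tested in either direction and 3.05% lower in KO. DESeq2 gave the same counts of members, 1 unadjusted and 0 adjusted, where 1463 and 93 of all genes passed these thresholds. The log2 fold change was below 0 for 6 of 6 members, as for 53.9% of all genes, with a median of -0.67 over the members and -0.02 over all genes tested. Since the members vary together between mice, the shared direction does not amount to 6 separate observations. Without Ctrl replicate 1 the median over the members was -0.24 (-0.01 over all genes) and 0 of 6 members had an unadjusted p under 0.05, against 6.72% of all genes. For no member did the KO and Ctrl mice separate, which they did for 4.05% of all genes. In each member 2 of the 4 KO mice were below the lowest control and 2 were within the control range.

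**Figure D2:**
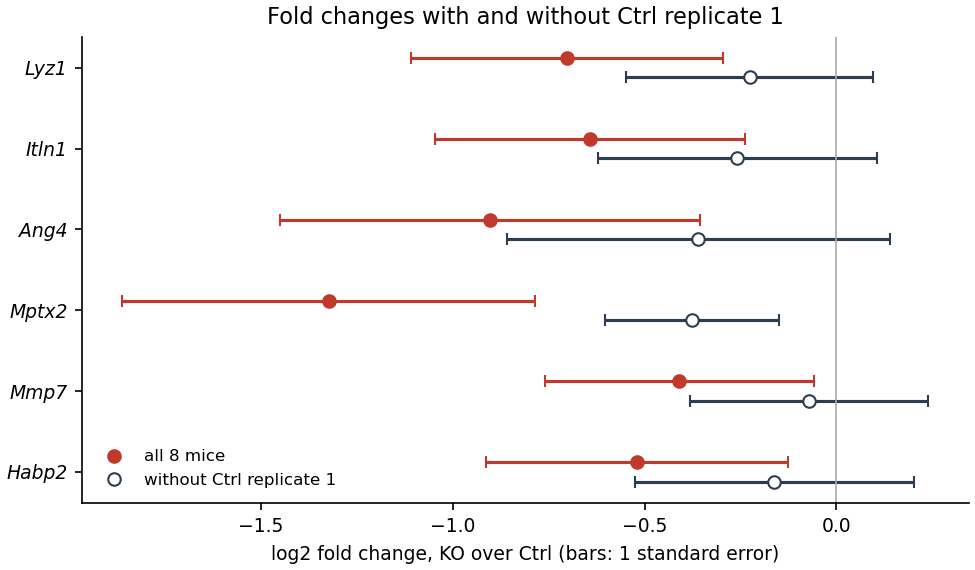
Log2 fold change of KO over Ctrl for each gene (points) with 1 standard error (bars), from the fit on all 8 mice and from the fit without Ctrl replicate 1. All 6 values are below 0 in both fits and are closer to 0 without that mouse, from -0.07 (Mmp7) to -0.38 (Mptx2).

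Whether some members changed more than others was tested on the log2 ratio between each pair within a mouse, which does not depend on the scaling of the library. The difference in this ratio between KO and Ctrl ranged from -0.59 to 0.31 over the 15 pairs, and none passed an exact permutation test over the 70 assignments (unadjusted p from 0.143 to 0.971, adjusted over the 15 pairs from 0.571 to 0.971, with 0.0286 the smallest unadjusted p that 4 mice against 4 allow). The pair with the most negative value was Ang4 to Mmp7, with a mean log2 ratio of 2.32 ± 0.27 in Ctrl and 1.74 ± 0.70 in KO (SD, n = 4 each). This ratio and that of Ang4 to Habp2 were lower in KO in 4 of 4 same-numbered pairs of mice. That pairing was assumed, and the test over all assignments does not use it. The difference for Ang4 to Mmp7 was -0.25 to -0.80 with 1 mouse left out. Lyz1 to Itln1 had nearly the same ratio in both genotypes, 1.13 ± 0.32 in Ctrl and 1.12 ± 0.20 in KO (SD, n = 4 each). The ratio of Mptx2 to Mmp7 was 1.27 ± 0.79 in Ctrl and 0.70 ± 0.63 in KO (SD, n = 4 each). Its difference was -0.57 with all mice and -0.28 without Ctrl replicate 1.

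Between mice, 5 of the members varied together. Across the 8 mice, the log2 CPM of the 10 pairs among Lyz1, Itln1, Ang4, Mmp7 and Habp2 correlated with a Pearson r of 0.87 to 0.98 (exact permutation p of 2.48e-05 to 0.00707, adjusted over 15 pairs 0.000372 to 0.0106) and a Spearman rho of 0.83 to 1 (exact permutation p of 4.96e-05 to 0.0154, adjusted 0.000744 to 0.0231). Itln1 and Habp2 put the 8 mice in the same order (rho of 1). After subtraction of the genotype means r was 0.84 to 0.98, and without Ctrl replicate 1 it was 0.76 to 0.96. Without the 2 mice farthest from the median, r of these pairs was 0.48 (Lyz1 and Ang4) to 0.98, so the lowest of them rested in large part on those mice.

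The 5 pairs with Mptx2 had a Pearson r of 0.63 to 0.74 (exact permutation p of 0.0538 to 0.0973, adjusted 0.0734 to 0.0973) and a Spearman rho of 0.29 to 0.38 (exact permutation p of 0.360 to 0.501, adjusted 0.449 to 0.501), which did not pass. Without Ctrl replicate 1, r was 0.03 to 0.28, and without the 2 farthest mice -0.25 to 0.27. The relation of Mptx2 to the other members thus rested on Ctrl replicate 1, the highest mouse for all 6. In KO replicate 3, where Ang4 was 0.47 above its own mean on the log2 scale, Mptx2 was 0.79 below its mean. Whether these pairs differ from the other 10 was not tested.

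**Figure D3:**
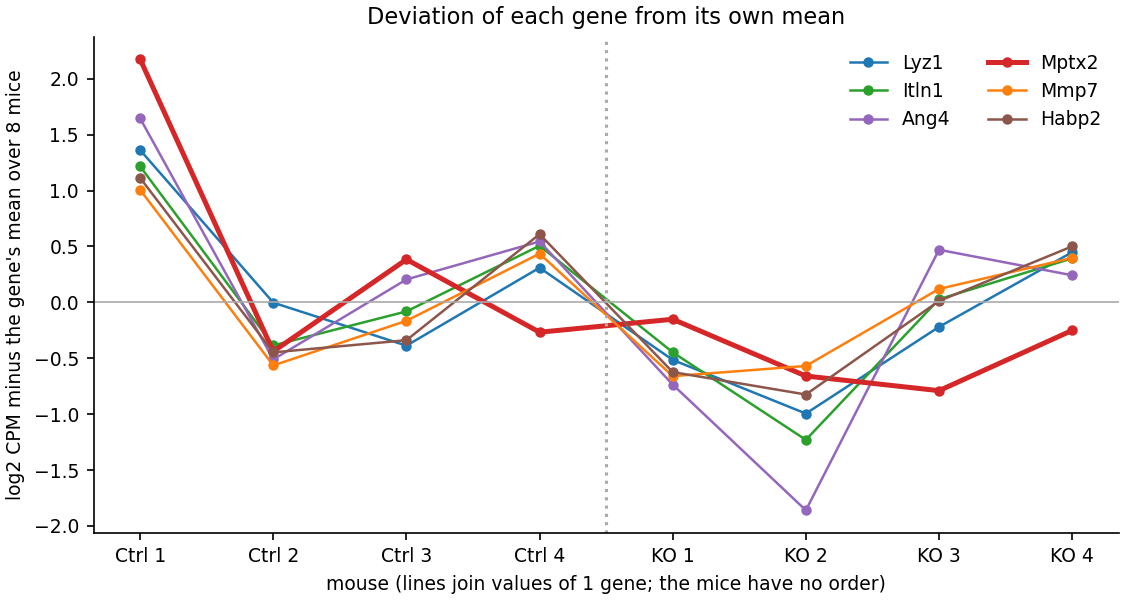
Log2 CPM of each gene in each mouse minus the mean of that gene over the 8 mice, Ctrl to the left and KO to the right of the dotted line. All 6 genes are highest in Ctrl 1, and Mptx2 (thick red line) lies above the other 5 in Ctrl 1, Ctrl 3 and KO 1 and below them in Ctrl 4, KO 3 and KO 4.

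The members spread more between mice of a genotype than most genes. The standard deviation of log2 CPM within genotype was 0.61 (Mmp7) to 0.98 (Ang4), with a median of 0.69, against a median of 0.22 over all genes tested. Ang4 had a larger spread than 97.1% of those genes and Mmp7 than 88.2%. The values without Ctrl replicate 1 were 0.36 (Mptx2) to 0.89 (Ang4), against a median of 0.21 over all genes.

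Of 12378 genes with a mean log2 CPM of at least 1, the pattern closest to the mean of the members over the 8 mice, after subtraction of the genotype means, was that of Sorcs2 (r = 0.99), a sortilin-family receptor. It was followed by the alpha-defensin Defa21 (0.99), the predicted gene Gm15293 (0.98), the cytochrome Cyp2j6 (0.98) and the transmembrane gene Tmem263 (0.98). Their log2 fold changes were between -0.62 and 0.11, with unadjusted p from 0.310 to 0.595 in edgeR. Sorcs2 was at 27.1 CPM on average and Defa21 at 1721. In all, 161 genes outside the members had an r above 0.9, and the median over all genes ranked was 0.0015.

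The other listed products of Paneth cells, all secreted except the chromatin protein Nupr1, had log2 fold changes on both sides of 0. Of 26 listed genes, 24 were in the table and 21 were tested, with 16 log2 fold changes below 0, 5 above and a median of -0.31. Leaving out Ctrl replicate 1 gave 10 below 0, 11 above and a median of 0.02, so the lean towards lower levels was absent without that mouse. That mouse was singled out by its high Paneth levels, so a shift upward follows from leaving it out. At a p under 0.05 before adjustment, 2 were higher and 1 was lower in KO, and 0 passed after adjustment. Over all genes tested, 8.38% were called in either direction, 3.05% as lower in KO, and 53.9% had a log2 fold change below 0. The higher genes were Reg3a and Reg3b, lectins that bind bacteria. Reg3b was at 973 ± 402 CPM in Ctrl and 2057 ± 1126 in KO (SD, n = 4 each; log2 fold change 1.08, unadjusted p = 0.0248, edgeR), and Reg3a at 19.1 ± 9.17 and 34.2 ± 7.64 CPM (0.84, unadjusted p = 0.0247). Both are also made by enterocytes. With Ctrl replicate 1 left out their log2 fold changes were 1.16 and 1.195 (Reg3b and Reg3a), and the alpha-defensin Defa20 was also higher (1.30, against 0.35 with all mice).

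Mptx1, the paralog of Mptx2, was the 1 listed product below the unadjusted threshold in the direction of lower levels in KO, at 11.9, 6.07, 14.9 and 6.18 CPM in Ctrl replicates 1 to 4 and 7.89, 2.48, 5.76 and 4.92 in KO replicates 1 to 4. Its log2 fold change was -0.89 (standard error 0.39, unadjusted p = 0.0483, adjusted p = 0.589, edgeR), and -0.78 with a p of 0.108 before adjustment without Ctrl replicate 1. Unlike the members, Mptx1 was highest in Ctrl replicate 3. Of the other paralogs, Lyz2 (log2 fold change -0.18, unadjusted p = 0.359) and Ang, the angiogenin gene itself (13.7 to 18.4 CPM, log2 fold change 0.07, unadjusted p = 0.594), varied little between mice. Ang5 had 0 to 20 counts per mouse and was not tested, Ang2 and Ang6 were at 0 counts in all mice, and Itlnb was not analysed here.

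The 3 most abundant of these other products were alpha-defensins, the peptides that Mmp7 activates. Defa24 was at 8896 ± 4479.5 CPM in Ctrl and 5195 ± 2656 in KO (SD, n = 4 each; log2 fold change -0.78, unadjusted p = 0.123), Defa30 had a log2 fold change of -0.74 (unadjusted p = 0.149) and Defa21 of -0.31 (unadjusted p = 0.589, all from edgeR). Leaving out Ctrl replicate 1 moved these values to -0.43 and -0.40 and turned that of Defa21 to 0.38. The alpha-defensin genes are nearly alike in sequence, so the division of reads among them is uncertain. Same-numbered mice were also paired in a replicate block, an assumed pairing. In that fit 8 of the 21 products had an unadjusted p under 0.05, against 11.3% of all genes. They were Reg3a, Reg3b and Reg3g, all higher in KO, and Mptx1, Pla2g2a, Defa5, Defa24 and Defa30, all lower.

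All 24 listed regulators, receptors and ligands were tested, and their log2 fold changes had a median of -0.05. Dll1 was higher and Cd24a lower in KO with a p under 0.05 before adjustment, and 0 of 24 passed after adjustment. A count of 2 of 24 is close to the background share of 8.38%. Cd24a, a surface glycoprotein used to sort Paneth cells, was at 411 ± 77.7 CPM in Ctrl and 309 ± 46.1 in KO (SD, n = 4 each; log2 fold change -0.41, unadjusted p = 0.0220, adjusted p = 0.545, edgeR). Dll1, a Notch ligand of secretory progenitors, had a log2 fold change of 0.17 (unadjusted p = 0.0288). Leaving out Ctrl replicate 1 gave -0.28 (unadjusted p = 0.0604) and 0.14 (0.0743), and 0 of 24 genes were under 0.05. Sox9 had a log2 fold change of -0.28 (unadjusted p = 0.0567, edgeR). In the fit with the replicate block it was -0.26 with an unadjusted p of 0.0168, and 3 of the 24 genes were under 0.05 (Sox9, Cd24a and Dll1), against 11.3% of all genes. Sox9 was at -0.15 without Ctrl replicate 1.

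Of the abundant regulators, Xbp1, a transcription factor of secretory cells, had a log2 fold change of -0.07 (unadjusted p = 0.417) and Fzd5, the WNT receptor that Paneth cell maturation needs, of 0.06 (unadjusted p = 0.539, edgeR). Within genotypes the regulators had a median standard deviation of 0.24 on the log2 scale, against 0.69 for the members and 0.86 for the other products.

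**Figure D4:**
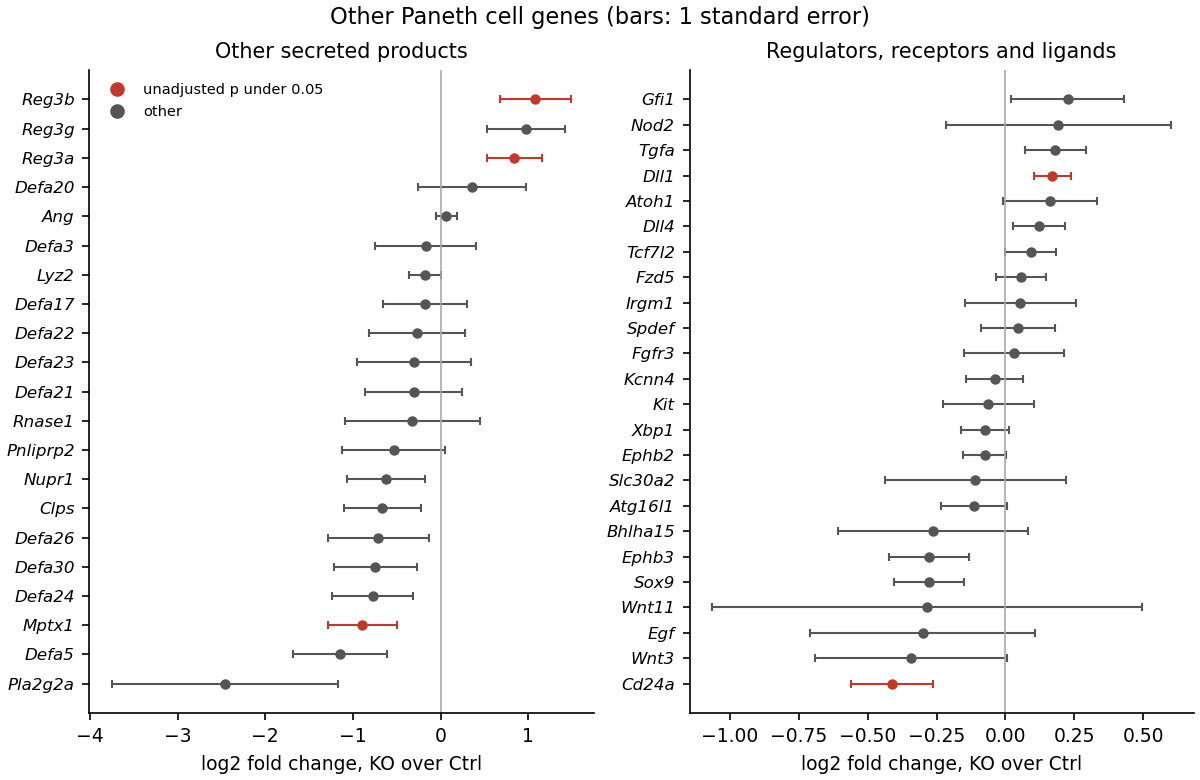
Log2 fold change of KO over Ctrl (points) with 1 standard error (bars) for the 21 other products (secreted, except Nupr1) and the 24 regulators, receptors and ligands tested, in red where the unadjusted p was under 0.05. The horizontal scales of the panels differ, and most regulators lie closer to 0 than the products.

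Markers of other cells and of position along the gut were compared in the same mice. All 4 of 4 listed genes of ileal bile acid transport were higher in KO with p under 0.05 before adjustment, and their summed level was 81.4 to 412 CPM in Ctrl, lowest in Ctrl replicate 1, and 435 to 897 CPM in KO. This threshold was passed in either direction by 8.38% of all genes tested. Fabp6, the ileal bile acid binding protein, was at 32.0, 292, 151 and 239 CPM in Ctrl replicates 1 to 4 and at 277, 529, 421 and 582 CPM in KO replicates 1 to 4. The mouse with the highest level of all 6 members was thus the one with the lowest Fabp6. KO replicate 4, in contrast, had the highest Fabp6 and, at 9381 CPM, more Lyz1 than every mouse but Ctrl replicate 1. The 9 enterocyte markers had log2 fold changes above 0, 2 of them at this threshold (Apoa1 and Vil1), with sums of 1814 to 3998 CPM in Ctrl and 2456 to 8794 in KO. Of 6 T cell markers 4 were higher at that threshold, with sums of 10.9 to 43.8 CPM in Ctrl and 24.3 to 95.4 in KO. Leaving out Ctrl replicate 1 kept the count of ileal genes at 4 and gave 1 enterocyte marker and 1 T cell marker.

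Goblet cell markers, among them Zg16 and Fcgbp, were higher in KO at this threshold for 2 of 8 and lower for 1 (Spink4), with sums of 5058 to 6859 CPM in Ctrl, lowest in Ctrl replicate 1, and 6039 to 8669 in KO. Stem cell markers had sums of 4006 to 4801 CPM in Ctrl and 2955 to 3679 in KO, with 3 of 5 lower at that threshold. The fit without Ctrl replicate 1 gave 2 stem cell markers lower and, for goblet cells, 2 higher and 0 lower. The 4 tuft cell markers tested had log2 fold changes below 0, with 0 under the threshold with all mice and 3 without Ctrl replicate 1, and sums of 40.8 to 98.5 CPM in Ctrl and 33.2 to 57.7 in KO.

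Of 5 genes of the proximal intestine, 2 had log2 fold changes above 0 and 3 below, with 1 higher at the threshold (Adh6a; 0 without Ctrl replicate 1) and sums of 289 to 472 CPM in Ctrl and 318 to 798 in KO. Of 5 colon genes 2 were tested, and Retnlb, a secreted goblet cell protein, was lower in KO (log2 fold change -2.15, unadjusted p = 0.00807, adjusted p = 0.518, edgeR). The colon genes summed to 20.4 to 22.8 CPM in Ctrl and 17.1 to 25.5 in KO, with Hoxb13 at 0 in all mice. Myeloid markers, which bear on Lyz2, summed to 33.6 to 38.9 CPM in Ctrl and 33.1 to 49.3 in KO. None of the enterocyte, T cell, goblet, stem, tuft, myeloid, ileal or proximal markers was at 0 in all mice. Sums of pancreas, stroma, blood and mast cell markers were at most 15.9 CPM in any mouse. The 1 blood gene tested, Hba-a1, a haemoglobin chain, was lower in KO (log2 fold change -1.26, unadjusted p = 0.0452, adjusted p = 0.586, edgeR), with its highest level, 3.19 CPM, in Ctrl replicate 1, and did not pass without that mouse (-0.57, unadjusted p = 0.216, edgeR). Enteroendocrine markers summed to 264 to 469 CPM in Ctrl, lowest in Ctrl replicate 1, and 344 to 372 in KO, with 1 of 8 higher at the threshold (Sct, the secretin gene; 0 without Ctrl replicate 1). Markers of proliferation and of B and plasma cells had 0 under the threshold in either fit. The part of cell makeup or of position along the intestine in the values of the 6 members was not tested.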

How the data were processed

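RNA-seq of crypts from 8 mice was analysed, grouped by the genotype in the labels. Unnormalised read counts for each gene were deposited by the authors. The submitters' notes name CASAVA, HISAT2 2.0.5 and featureCounts 1.5.0-p3. The authors also deposited FPKM values, which divide the same counts by gene length and library size and served for levels between genes. The authors' own fold changes, p-values and list of differential genes were not used.

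The members and gene lists were chosen with earlier results of these data known. Counts were tested with edgeR 4.0.16 (R 4.3.3; filterByExpr with a minimum count of 10, TMM, quasi-likelihood test, genotype only, all 8 mice), with Benjamini-Hochberg adjustment over 16109 genes at a threshold of 0.05. The test was checked on simulated counts. CPM use TMM factors; log2 CPM add a prior count of 2. The 95% intervals use 9.345 degrees of freedom. Permutation tests were exact and two-sided, over 70 assignments for differences and 40320 pairings for correlations. Each replicate is a separate mouse.

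Named genes were the members, Mex3a, paralogs, listed Paneth genes with an unadjusted p under 0.05 and the 3 most abundant of each list, and the 5 genes most like the members; other markers were named after their values were seen. Deviations of same-numbered mice correlated over all genes (r from 0.129 to 0.501 in 4 pairs, 0.0904 to 0.474 over autosomal genes), in part through the shared Xist or Y class. Mice with different numbers were not compared in this way. The pairing by number, used in the replicate block, is therefore an assumption that was not tested. Alternatives were DESeq2 1.42.0, RLE and upper-quartile factors, other filters, limma 3.58.1 on log2(FPKM + 1) or log2(FPKM + 0.1) for genes with a mean FPKM of at least 0.5, robust edgeR, the replicate block, the Xist or Y class as a covariate, and leaving out each mouse. Sequences are from RefSeq (GRCm38.p6) and shared windows from GENCODE M21; protein sequences were not used here.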

Additional observations from a re-analysis of the deposited data

Results flagged for a closer look

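Pla2g2a, which encodes a secreted phospholipase of Paneth cells and carries an inactivating frameshift in C57BL/6 mice, had 1 mouse far from the others of its genotype. Its log2 CPM was 10.1 in KO replicate 1 and 5.84 to 6.22 in the other 3 KO mice, a gap of 0.909 of the whole range, which is above Dixon's critical value for 4 samples. In Ctrl replicates 1 to 4 it was at 3927, 49.5, 1318 and 1767 CPM, and in KO replicates 1 to 4 at 1090, 57.1, 63.4 and 74.6 CPM, so that 4 mice were above 1000 CPM and 4 were below 100, in both genotypes. All 8 mice are labelled C57BL/6, a label that by itself does not separate the high from the low mice, and whether they share 1 genetic background was not tested. Chance marks about 1 in 20 groups in this way, or 2.4 of the 48 groups of 4 mice examined. The 24 genes examined were the named genes that were tested and Pla2g2a, which met none of the naming rules and was added by hand. The count by chance therefore does not bear on Pla2g2a. Other listed products, Rnase1 among them, were not examined in this way. None of the 6 members was marked in either genotype.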

How the results depend on the processing

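Each of the 6 members kept a log2 fold change below 0 and an adjusted p above 0.05 in all 18 alternatives. Leaving out 1 mouse gave -1.02 to -0.23 for Lyz1, -0.91 to -0.26 for Itln1, -1.23 to -0.36 for Ang4, -1.59 to -0.38 for Mptx2, -0.63 to -0.07 for Mmp7 and -0.82 to -0.16 for Habp2, each time closest to 0 without Ctrl replicate 1, the highest mouse for each. Mptx2 had an unadjusted p under 0.05 in 11 of 18 alternatives, including the replicate block (log2 fold change -0.91), and the count of members under it was 0 with limma on log2(FPKM + 1), limma on log2(FPKM + 0.1) and robust edgeR, and 0 to 1 with 1 mouse left out. Lyz1 reached it without KO replicate 4. Among all genes, 93 had an adjusted p under 0.05 with DESeq2, 2 without a filter, 4 with the Xist or Y class as a covariate, 0 with at least 10 counts in every mouse, which removes Mex3a, 0 with the replicate block and 0 to 4 (without Ctrl replicate 2) with 1 mouse left out, and 846 (without KO replicate 3) to 2133 (without KO replicate 1) had an unadjusted p under 0.05. The log2 fold change of Mex3a was -4.51 with the replicate block and -4.87 to -4.17 with 1 mouse left out, but -1.56 with limma on log2(FPKM + 1) and -3.59 on log2(FPKM + 0.1). Of the other Paneth products, 6 had an unadjusted p under 0.05 without a filter, 8 with the replicate block, 5 with the Xist or Y class and 1 (without Ctrl replicate 3 or KO replicate 2) to 5 (without KO replicate 4) with 1 mouse left out, and of the regulators 0 (without Ctrl replicate 1) to 4 (without Ctrl replicate 2 or KO replicate 1). The replicate block added Sox9 to the regulators under 0.05, and among the markers of other cells it gave 4 goblet markers higher and 0 lower, 4 enterocyte, 5 T cell and 1 myeloid marker higher, and 2 tuft and 3 stem cell markers lower. It also brought Gata4, Mcpt1 and Mcpt2 (lower) and Dcn (higher) under 0.05, took Sct above it and changed no call of a member. The log2 ratio differences kept their signs except Ang4 to Mptx2 (-0.44 to 0.38) and Lyz1 to Itln1 (-0.12 to 0.11) with 1 mouse left out. With 1 mouse left out, 3 pairs reached an exact permutation p of 0.0286 before adjustment (Ang4 to Mmp7 and Ang4 to Habp2 without KO replicate 3, Itln1 to Mmp7 without KO replicate 1), and their adjusted p was at least 0.214. The median r of Mptx2 with the other members was 0.12 (without Ctrl replicate 1) to 0.75, and that between the other 5 was 0.88 to 0.96. The cause of these changes was not tested. With 4 mice a group and this spread, the intervals still held falls of more than 1 log2 unit for all 6 members.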

Other observations

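Rnase1 and Nupr1, other secretory-cell genes of the Paneth list that were singled out after their values were seen, also had an unusual level in Ctrl replicate 1, in opposite directions. Rnase1, a pancreatic-type ribonuclease, was at 0.462 CPM in that mouse and at 7.56 to 26.7 CPM in the other 7. Nupr1, a stress-induced chromatin protein, was at 173 CPM in that mouse and at 38.3 to 65.2 CPM in the other 7.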
